A study of Mus musculus with 6 samples.

Results

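The otic placode is a patch of thickened ectoderm beside the hindbrain that folds into the otic vesicle, the forerunner of the inner ear. Eya1, Eya2, Eya4, Six4, Pax8, Oc90, Hmx2, Hmx3 and Otx1 are genes known for their part in this tissue or in the neighbouring cranial placodes. Their transcripts were followed in dissected rhombomere 4 tissue of Hoxb1 mutant and wild-type mouse embryos. All probe sets listed with 1 of these 9 genes alone in the array annotation were taken, which gave 9 probe sets of 8 genes, among 22626 probe sets of 12393 genes in all. Six4 had 2 probe sets and the other 7 genes had 1 each, while Otx1 was listed for none and is not analysed here. No probe set of the 8 genes passed the test for a difference between mutants and wild type, and neither did any other of the 22626. Their levels ran from clearly above the array background for Eya1 and 1 of the 2 Six4 probe sets to below it for Hmx3.

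As background, Pax, Eya and Dach proteins and the homeobox protein Six4 belong to a regulatory network of the cranial placodes, in which Six4 binds DNA and Eya proteins act as coactivators and carry a phosphatase domain. Pax8 is among the earliest genes of the otic and epibranchial field, and Hmx2 and Hmx3 are homeobox genes needed in mice for the vestibular part of the ear. Oc90 encodes otoconin-90, the main matrix protein of the otoconia, the crystals that load the balance organs, and it is made by the otic epithelium. In the mouse the placode is induced in part by FGF signals, Fgf3 of the hindbrain and Fgf10 of the mesenchyme among them. Several of the genes also act elsewhere. Eya1, Eya2 and Six4 are known from sensory ganglia and other placodes, and Pax8 is known from interneurons of the hindbrain and spinal cord and from the thyroid.

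The study compared 3 arrays of Hoxb1 mutant embryos with 3 arrays of wild-type embryos, all at E10.5, and asks which transcripts of this hindbrain segment depend on Hoxb1. Each array took total RNA of a separate pool of rhombomere 4 segments from several embryos, so no array is a single embryo. Per the labels, branchial arch tissue around the segment was part of the dissection. The sources used here do not give the mutant allele, the strain or the somite stage. Because each sample is a mixture of tissues, fewer cells of a type and less RNA per cell cannot be told apart.

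Intensities are on a linear scale, and each array had been scaled to a trimmed mean of 500.0. The median intensity of all probe sets was 186.8 to 214.5 on the mutant arrays and 203.5 to 208.0 on the wild-type arrays. Hoxb1, the targeted gene, gave 60.8, 35.3 and 50.0 on the mutant arrays and 341, 378 and 588 on the wild-type arrays, which was at least 6.88-fold higher in wild type when the mutant arrays were set to 61.5, the background level. Its limma adjusted p was 0.0695, and 0 of the 22626 probe sets passed 0.05 after adjustment, while 1303 had an unadjusted p under 0.05. The sources used here do not say whether the Hoxb1 probe set lies in the deleted part. The probe sets of 18S ribosomal RNA averaged 6.36 to 7.03 on the log2 scale on the mutant arrays. On wild-type replicates 1, 2 and 3 they averaged 6.44, 12.1 and 11.3, so that 2 wild-type arrays stood apart. As high 18S signal occurred on wild-type arrays only, a covariate of this signal is partly confounded with genotype.

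Background was read from 27 control probe sets for bacterial transcripts, with values of up to 122 and a 95th percentile of 61.5, here called the bacterial level. Of the 9 probe sets of the otic factors, 6 lay above 61.5 on all 6 arrays, those of Eya1, Eya2, Pax8, Hmx2, Oc90 and the brighter one of Six4. This is a share of 66.7%, beside 68.2% of all probe sets. Above 122 on all arrays were 3 of them, Eya1, Eya2 and the brighter Six4 probe set, and Oc90 exceeded 122 on 5 arrays. The probe sets of 71 olfactory, vomeronasal and taste receptors, chosen as a second background after the data were seen, had a 95th percentile of 172. Of these receptor probe sets, 18 of 71, or 25.4%, also lay above 61.5 on all 6 arrays, so passing the bacterial level does not by itself show a transcript. Above 172 on all 6 arrays were 2 probe sets of the otic factors, Eya1 and the brighter one of Six4, beside 48.0% of all probe sets, while Oc90 and Eya2 exceeded it on 4 arrays each and Pax8 and Hmx2 on 0.

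**Figure D1:**
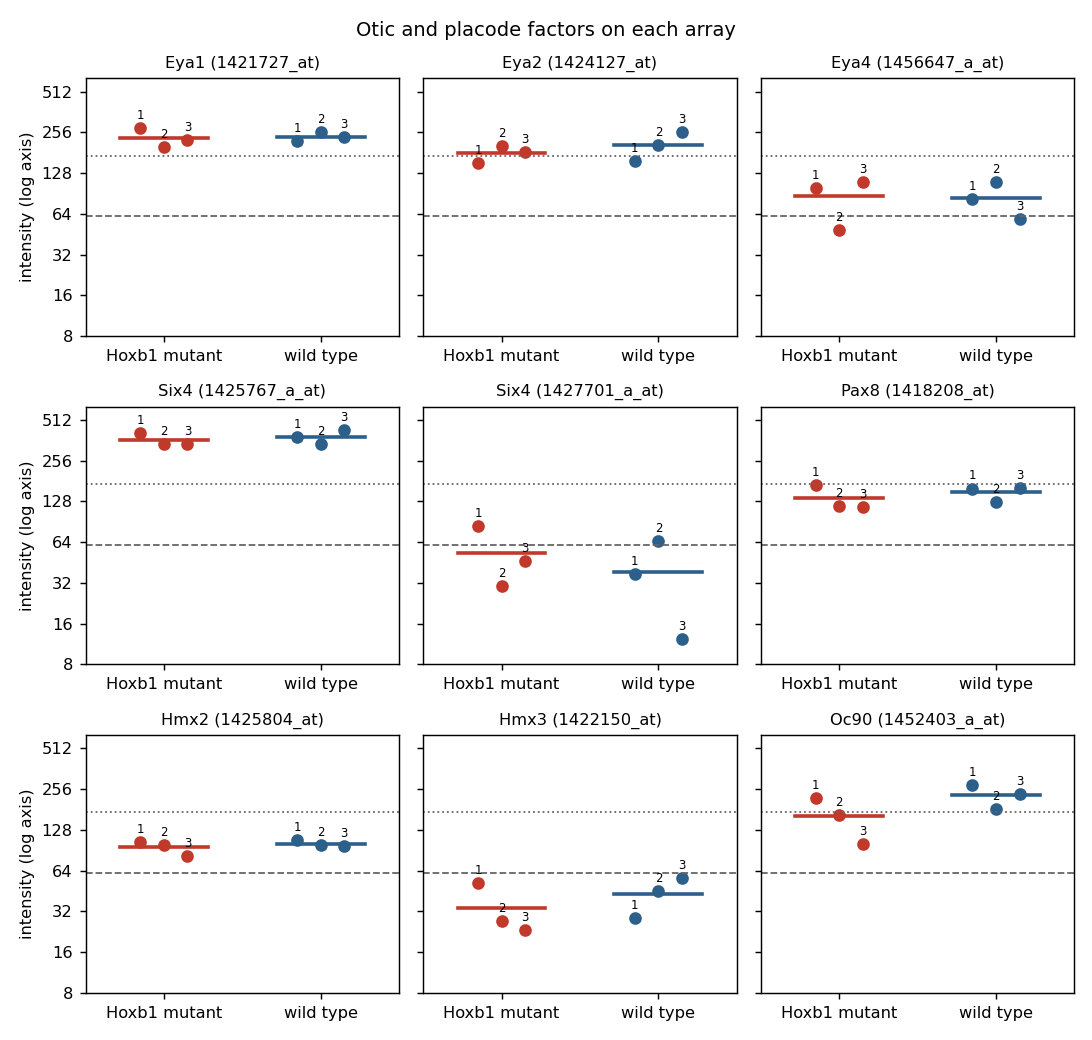
Intensity (logarithmic axis) of the 9 probe sets on each array, Hoxb1 mutant arrays in red and wild-type arrays in blue, with the replicate number beside each point and a bar at the mean of 3 arrays. The dashed line marks the 95th percentile of the bacterial controls (61.5) and the dotted line that of the chemosensory receptor probe sets (172); the groups overlap in every panel.

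None of the 3 Eya coactivators measured passed the test. Eya1, whose loss in mice stops growth of the otic vesicle, gave 277, 199 and 226 on the mutant arrays and 220, 257 and 238 on the wild-type arrays (probe set 1421727_at). The highest and the lowest of these values both came from mutant arrays, and the wild-type range lay within the mutant range. The log2 difference, taken as mutant minus wild type after adding 16 to each intensity, was -0.03 (95% interval -0.39 to 0.32; limma adjusted p = 0.980).

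Eya2, a gene of the epibranchial placodes and their neuroblasts, gave 152, 202 and 182 on the mutant arrays and 157, 206 and 256 on the wild-type arrays (1424127_at). Replicate 1 was the lowest array of each group, and the groups overlapped. The log2 difference was -0.17 (95% interval -0.64 to 0.29; adjusted p = 0.902). With the 18S signal as a covariate, which is partly confounded with genotype, it was 0.09 (SE 0.24). Without single arrays it ran from -0.34 to -0.014.

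Eya4, mutated in a human form of late hearing loss, gave 99.3, 48.5 and 110 on the mutant arrays and 81.8, 110 and 58.3 on the wild-type arrays (1456647_a_at). Mutant replicate 2 and wild-type replicate 3 lay below the bacterial level and the other 4 arrays above it. The means were 85.9 ± 32.8 in mutants and 83.2 ± 25.6 in wild type (SD, n = 3 each). The log2 difference was 0.01 (95% interval -0.72 to 0.74; limma adjusted p = 0.998), and the width of this interval allows a change of either direction.

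Six4, a homeobox partner of the Eya proteins, lay above every background measure with its brighter probe set, 1425767_a_at. It gave 412, 341 and 342 on the mutant arrays and 383, 340 and 429 on the wild-type arrays. The 6 values spanned 1.26-fold, the narrowest range of the 9 probe sets, and the groups overlapped. The log2 difference was -0.07 (95% interval -0.40 to 0.26; adjusted p = 0.952). The second probe set of Six4, 1427701_a_at, gave 83.7, 30.3 and 46.2 on the mutant arrays and 37.3, 65.4 and 12.3 on the wild-type arrays. It exceeded the bacterial level on 1 array of each group and spanned 6.79-fold, the widest range of the 9. Its log2 difference of 0.41 (95% interval -0.63 to 1.44; limma adjusted p = 0.894) had the opposite sign to that of the brighter probe set, and both intervals include 0. It was 0.0024 without wild-type replicate 3 and 0.76 without wild-type replicate 2, so its size rested on single arrays. The suffix _a_at marks probe sets that recognise several transcripts of a gene.

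Pax8, the paired-box gene, gave 169, 119 and 117 on the mutant arrays and 160, 127 and 161 on the wild-type arrays (1418208_at). Mutant replicate 1 was the highest of the 6 arrays, while the other mutant arrays lay just below the wild-type range. The log2 difference was -0.14 (95% interval -0.56 to 0.27; adjusted p = 0.910). Without mutant replicate 1 it was -0.30, and over all 16 alternative settings it ran from -0.30 to -0.06.

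The homeobox genes Hmx2 and Hmx3, which are neighbouring genes in the RefSeq gene table, lay below the receptor level on all arrays. Hmx2 gave 104, 98.5 and 82.7 on the mutant arrays and 108, 99.6 and 97.7 on the wild-type arrays (1425804_at). Its arrays were close together, and mutant replicate 3 was the lowest. The log2 difference was -0.09 (95% interval -0.38 to 0.21; adjusted p = 0.925). In the main fit this was the narrowest interval of the 9 probe sets, with an SE of 0.122. It spans mutant signals, with the pseudocount added, of 0.769 to 1.15 times wild type. With trend and robust settings the SE of Hmx2 was 0.182, above those of the brighter Six4 probe set (0.137) and Eya1 (0.157). No Hmx2 value exceeded the highest bacterial control, so the interval describes the signal and need not bound a change of the transcript. Hmx3 gave 51.9, 27.2 and 23.2 on the mutant arrays and 28.6, 45.0 and 56.4 on the wild-type arrays (1422150_at). All 6 values lay below the bacterial level, so the difference of Hmx3 is not read as a change, though it is counted among the 9. Its limma adjusted p was 0.890.

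Oc90, the otoconial matrix gene, had the lowest p of the 9 probe sets. It gave 222, 166 and 100 on the mutant arrays and 275, 183 and 235 on the wild-type arrays (1452403_a_at). Mutant replicates 2 and 3 lay below every wild-type array, but mutant replicate 1 lay between wild-type replicates 2 and 3, so the groups overlapped. The means were 163 ± 60.9 in mutants and 231 ± 46.1 in wild type (SD, n = 3 each). The log2 difference was -0.51 (SE 0.28, 95% interval -1.18 to 0.16; limma adjusted p = 0.833). On the fold scale the interval spans 0.441 to 1.12, so it includes both an unchanged level and a level of 0.5 of wild type. By unadjusted p it ranked 3119 of 22626.

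The size of the Oc90 difference depended on single arrays. Without mutant replicate 1 the log2 difference was -0.75, with an unadjusted limma p of 0.0308 and an adjusted p of 0.552. Without mutant replicate 3, the array with the lowest value, it was -0.23 (adjusted p = 0.958). With the 18S signal as a covariate, which is partly confounded with genotype, it was -0.73 (SE 0.395). Leaving out both wild-type arrays of high 18S signal gave -0.76, but against wild-type replicate 1 alone, the array with the highest Oc90 value. All 16 alternative settings gave a lower mean in mutants, and in 0 of them did Oc90 pass the adjusted threshold. Settings that alter only the error estimate or the probe sets kept could not change this difference.

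**Figure D2:**
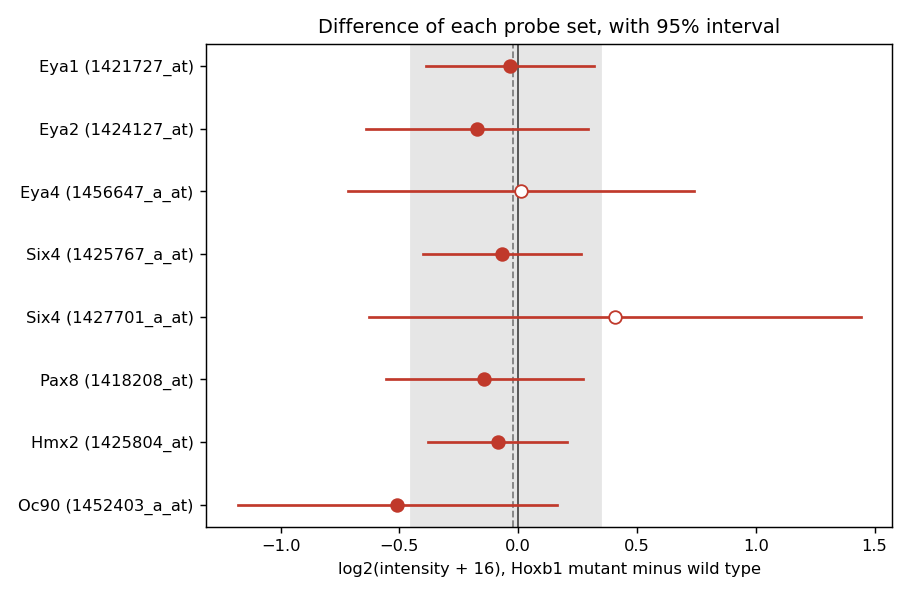
Log2 difference (horizontal axis, mutant minus wild type after adding 16) of each probe set, with the 95% interval of the limma fit over 6 arrays. Filled points lay above the bacterial level on all arrays and open points on 2 or 4 of them; Hmx3, below it on all 6, is left out. The grey band holds the middle 90% of all probe sets (-0.45 to 0.35), the dashed line their median (-0.02), and every interval crosses 0.

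Across the 9 probe sets, 7 had a lower and 2 a higher mean difference in mutants, where 54.2% of all probe sets were lower. The median log2 difference was -0.09, beside -0.02 over all probe sets and -0.05 over the 10506 probe sets within the intensity range of the 9. Of the 9 probe sets, 0 had an unadjusted p under 0.05, beside 5.76% of all probe sets, and 0 had groups that did not overlap, beside 12.0% of all probe sets. The median half-width of the 95% interval was 0.47 on the log2 scale. Smaller differences mostly could not be told from 0 with 3 arrays a group, even without adjustment for the number of probe sets. The adjusted threshold asked for more, as Hoxb1 did not pass it with a log2 difference of -2.78. With the 18S covariate, which is partly confounded with genotype, the median was 0.09.

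The array with the highest values among the mutants was replicate 1 in 7 of the 9 probe sets, all but Eya2 and Eya4. The same array was the highest mutant array in 57.3% of the 10506 probe sets within the intensity range of the 9. Averaged over the 9 probe sets, the deviation from the mean of the 6 arrays was 0.22 on mutant replicate 1, -0.20 on replicate 2 and -0.16 on replicate 3. On the wild-type arrays it was 0.01, 0.11 and 0.01. Over the 6912 probe sets within the narrower intensity range of the 6 above the bacterial level on all arrays, the median deviation was 0.09, -0.06 and -0.09 on the mutant arrays and 0.03, 0.05 and 0.02 on the wild-type arrays. On each array this median had the same sign as the mean of the 9, which also holds the dimmer Hmx3, Eya4 and second Six4 probe sets. The mean log2 level of the 6 alone was 7.78, 7.57 and 7.43 on the mutant arrays. It was 7.76, 7.67 and 7.86 on the wild-type arrays, so the highest array of the 6 was wild-type replicate 3. The part of such general movement of the arrays in the differences of the otic factors was not tested.

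**Figure D3:**
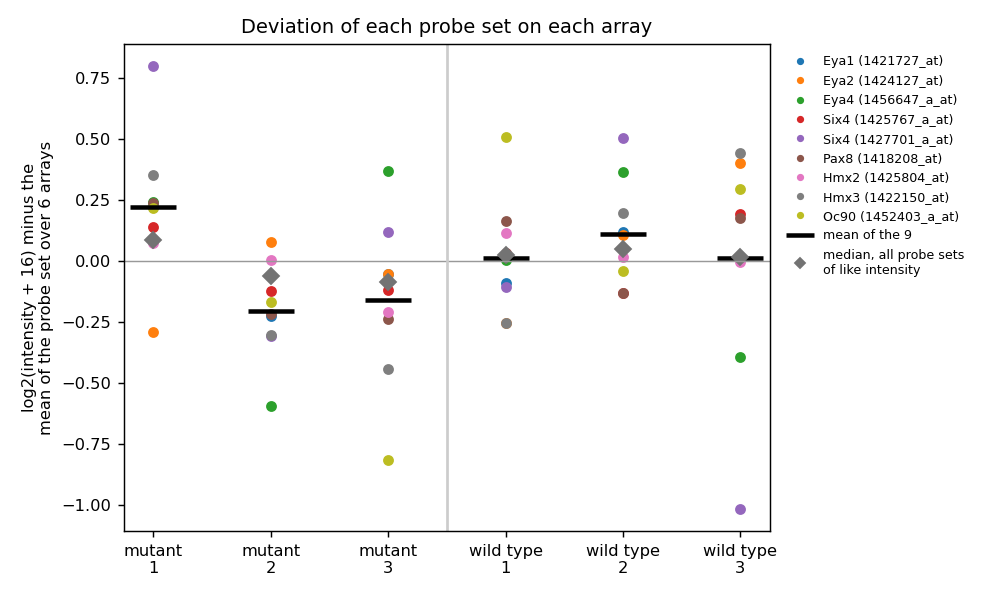
Deviation of each probe set from its own mean over the 6 arrays (vertical axis, log2(intensity + 16)) on each array (horizontal axis). Coloured points are the 9 probe sets, black bars their mean and grey diamonds the median of the 6912 probe sets within the intensity range of the 6 that lay above the bacterial level on all arrays; the black bar is highest on mutant replicate 1 (0.22) and lowest on mutant replicate 2 (-0.20).

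Other genes of otic development were read from lists, each gene by its brightest probe set. Of 36 regulators of the placode and vesicle, 29 were measured and the others are not analysed here. A lower mean in mutants was found for 23 and a higher mean for 6, where 54.2% of all probe sets were lower. Of these genes 0 passed the adjusted threshold and 4 had an unadjusted p under 0.05. All 4 were lower, beside 3.88% of all probe sets called lower in that way. The median log2 difference was -0.14, and the mean log2 level of the list was 8.28 to 8.39 on the mutant arrays and 8.45 to 8.61 on the wild-type arrays, without overlap.

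The 4 regulators were Gata3, Tbx2, Sox10 and Six5. Gata3, a transcription factor of the ear that is also expressed in ventral hindbrain neurons, gave 98.9, 78.2 and 99.1 on the mutant arrays and 130, 139 and 151 on the wild-type arrays (log2 difference -0.53, SE 0.13; limma adjusted p = 0.719). Six5, a relative of Six4, gave 209, 249 and 185 on the mutant arrays and 259, 350 and 329 on the wild-type arrays (-0.51, SE 0.17; limma adjusted p = 0.833). The groups did not overlap in any of the 4, nor in Etv5, a target of FGF signals, which made 5 of 29 genes or 17.2%, beside 12.0% of all probe sets. Tbx2, a T-box repressor, and Sox10, a factor of the neural crest and the otic epithelium, had log2 differences of -0.49 and -0.40. Dlx6, a distal-less homeobox gene of the arches and the ear, had the next smallest p, with a log2 difference of 0.56 (SE 0.25).

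Of the regulators that define the vesicle, Lmx1a, a LIM homeobox gene of the dorsal vesicle and the roof plate, gave 226, 163 and 134 on the mutant arrays and 213, 174 and 151 on the wild-type arrays. In each group replicate 1 was the highest and replicate 3 the lowest, and the log2 difference was -0.06 (SE 0.21). Tbx1, a T-box gene of the otic epithelium and the pharynx, had a log2 difference of -0.16 (SE 0.13). Gbx2, which acts in the dorsal vesicle and the anterior hindbrain, had -0.30 (SE 0.16). Dlx5, of the dorsal vesicle and the arches, gave 451, 825 and 590 on the mutant arrays and 601, 620 and 1391 on the wild-type arrays, with wild-type replicate 3 far above the others (-0.40, SE 0.37). Eya3, the remaining Eya gene, had 0.05 (SE 0.17), and Hmx1, a relative of Hmx2 and Hmx3 known from cranial ganglia and arches, had -0.30 (SE 0.19). None of these passed the threshold, with limma adjusted p from 0.833 to 0.975.

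The signals of otic induction and patterning had 22 of 23 listed genes measured. A lower mean was found for 14 and a higher mean for 8, where 54.2% of all probe sets were lower. Of these genes 0 passed the adjusted threshold, and the median log2 difference was -0.09. Fgf3, the hindbrain inducer of the placode, gave 111, 88.7 and 80.0 on the mutant arrays and 73.5, 109 and 74.4 on the wild-type arrays, with overlapping groups and a log2 difference of 0.11 (SE 0.18). Fgf10 and Fgf8 did not reach the bacterial level on any of the 6 arrays. Jag1, a Notch ligand that marks prosensory patches, was the only gene of this list with an unadjusted p under 0.05, a call made in the higher direction for 1.88% of all probe sets. It gave 328, 315 and 373 on the mutant arrays and 156, 167 and 278 on the wild-type arrays (0.75, SE 0.22; limma adjusted p = 0.817). Dll1, another Notch ligand, and Hey1, a Notch target, had differences of -0.29 (SE 0.15) and 0.21 (SE 0.12).

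Products of the inner ear, the proteins of hair cells and of the extracellular membranes, were mostly dim. Of 26 listed genes 23 were measured, and 9 of these exceeded the bacterial level on all arrays and 4 on none. Above the receptor level of 172 on all 6 arrays was 1 of the 23, Atoh1, which is also a gene of the hindbrain rhombic lip, at 415 ± 96.7 in mutants and 402 ± 42.3 in wild type (SD, n = 3 each). The hair cell genes Pou4f3, Gfi1 and Espn lay below the bacterial level on all 6 arrays. Other hair cell genes of the list, Myo7a, Myo6 and Tmc1, exceeded that level on all 6 arrays. Their means were 202, 106 and 87.6 in mutants and 216, 115 and 114 in wild type. Otog, the gene of otogelin in the acellular membranes of the ear, gave 94.1, 113 and 107 on the mutant arrays and 129, 76.1 and 125 on the wild-type arrays, with overlapping groups (log2 difference -0.04, SE 0.20). Tecta, the gene of the tectorial membrane protein alpha-tectorin, exceeded the bacterial level on 1 array.

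In this list 14 genes had a lower and 9 a higher mean in mutants, where 54.2% of all probe sets were lower. Of these genes 0 passed the adjusted threshold, and the median log2 difference was -0.07. The smallest p belonged to Otoa, which encodes otoancorin, with a log2 difference of -0.54 (SE 0.22; limma adjusted p = 0.833), at means of 35.9 in mutants and 60.5 in wild type, both under the bacterial level. The potassium channel gene Kcnq1 had 0.65 (SE 0.28), with 2 arrays above the bacterial level. The connexin gene Gjb2 gave 273, 289 and 138 on the mutant arrays and 262, 401 and 362 on the wild-type arrays (-0.56, SE 0.30). Its lowest array was mutant replicate 3, which was also the lowest array for Oc90. Otos, the gene of otospiralin, had -0.31 (SE 0.21).

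**Figure D4:**
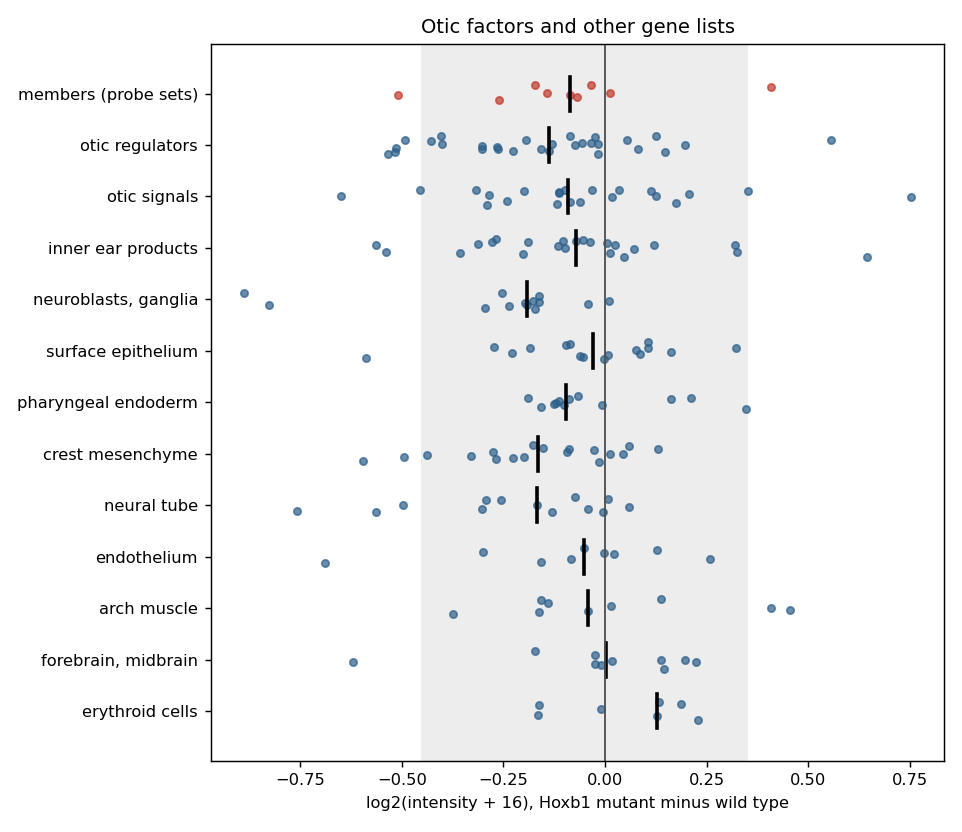
Log2 differences, Hoxb1 mutant minus wild type, of the 9 probe sets of the otic factors (red) and of the genes of 12 lists (blue, each gene by its brightest probe set), with a black bar at each median. The grey band holds the middle 90% of all probe sets; the median of the otic factors is -0.09, and the list medians run from -0.19 for neuroblasts and ganglia to 0.13 for erythroid cells.

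Cells that share these genes, or that the dissection could hold, were read from lists in the same way. The lists share genes, so their levels are not fully independent. Also in another list were 6 of the 29 regulators, 3 of the 13 neural tube genes and 1 of the 18 crest genes. In the list of placodal neuroblasts and sensory ganglia, which holds Eya2, 12 of 13 measured genes had a lower mean in mutants. Over all probe sets 54.2% were lower. The list had a median log2 difference of -0.19. Its mean log2 level was 8.47 to 8.62 on the mutant arrays and 8.76 to 8.91 on the wild-type arrays, without overlap. Gene by gene, the groups did not overlap for 15.4% of this list, beside 12.0% of all probe sets. The part of this list in the value of Eya2 was not tested. Neurog1, which specifies otic neuroblasts, had a log2 difference of -0.18 (SE 0.18). Of the 13 genes 0 passed the adjusted threshold and 2 had an unadjusted p under 0.05, both lower, beside 3.88% of all probe sets. These were Neurod4 (-0.83, SE 0.16; limma adjusted p = 0.615) and Phox2a (-0.89, SE 0.26; limma adjusted p = 0.817), and Tubb3, of next smallest p, had -0.30. The dissected segment holds neurons of the hindbrain too, and these arrays cannot tell them from placodal cells for the genes of this list. Surface epithelial genes, which the otic epithelium shares with the ectoderm and the pharynx, lay at 8.11 to 8.24 on the mutant arrays and 8.10 to 8.32 on the wild-type arrays, with Epcam at -0.10 (SE 0.16). On mutant replicate 3, where Oc90 was lowest, that list lay at 8.20. The mean levels of crest mesenchyme, neural tube and endothelium did not overlap between the groups and were lower in mutants, with medians of -0.16, -0.17 and -0.05. Gene by gene, the groups did not overlap for 11.1%, 30.8% and 11.1% of these lists, beside 12.0% of all probe sets. How often the mean of a list taken from all probe sets does not overlap was not tested for any list here. The mean levels of pharyngeal endoderm, arch muscle, forebrain and midbrain, and erythroid cells overlapped, with medians of -0.10, -0.04, 0.0036 and 0.13. Of the 92 genes in these 8 lists beside the neuroblasts, 0 passed the adjusted threshold and 4, or 4.35%, had an unadjusted p under 0.05. The share of all probe sets was 5.76% in either direction and 3.88% lower, and all 4 genes were lower. They were not spread evenly over the lists, as Sox3, Sox21 and Msi1 are 3 of the 13 measured neural tube genes. The other was En2 of the forebrain and midbrain list, below the bacterial level on all 6 arrays. The part of any of these tissues in the levels of the otic factors was not tested.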

How the data were processed

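Total RNA of 6 pools was measured on Affymetrix 430A mouse arrays. Per the range of its values, the deposited table gives linear intensities, 1 for each probe set on each array. Among tools, affy is given, per the submitters' processing notes. The sources used here give no expression algorithm, background correction or detection call. On each array the mean with 2% trimmed at each end was 500.0, and no further normalization was applied.

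Of 22690 probe sets, 64 Affymetrix controls were set aside and 22626 tested. Of these 20380 name 1 gene and 691 several. Symbols came from the platform annotation, updated through RefSeq for 20351. Groups were compared by limma 3.58.1 in R 4.3.3 on log2(intensity + 16), 2-sided, without trend or covariate. Adjustment was by Benjamini-Hochberg over all probe sets tested, at a threshold of 0.05. Intervals are those of the moderated fit. The script was tested on simulated data with known changes. Gene lists take the probe set of highest mean per gene. The pools are stated to be independent biological replicates, and the number of arrays limits the precision.

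The genes and lists were chosen with earlier results of these data known. Named were every probe set of the 9 genes, Hoxb1, the 3 genes of smallest p of each list (5 for regulators and ear products) and the defining markers. Further names (Eya3, Hmx1, Fgf8, Atoh1, Pou4f3, Gfi1, Espn, Myo7a, Myo6, Tmc1) were chosen after their values were seen. Lists of cells other than otic cells and neuroblasts are given by counts and levels, with few of the rule's genes printed. Alternatives were other normalizations, a filter on dim probe sets, pseudocounts of 1 and 64, eBayes with trend, array weights, a block for the replicate number, a covariate of 18S signal, and fits that left out arrays. The receptor background and the highest bacterial value were added after seeing the data.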

Additional observations from a re-analysis of the deposited data

How the results depend on the processing

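Of 141 values of the 9 probe sets under 16 alternative settings, 0 passed the adjusted threshold of 0.05 (lowest limma adjusted p 0.549), 125 kept their sign and 16 changed it. Those of Oc90, Pax8, Hmx2 and the dimmer Six4 probe set kept theirs. The dim filter, the trend and robust settings and the replicate block leave each log2 difference unchanged, so no sign could turn there. Eya1 turned to 0.024 with quantile normalization, 0.020 with centring on medians, 0.10 with the 18S covariate. With that covariate Eya2 turned to 0.094 and Hmx3 to 0.12, and with array weights Eya4 turned to -0.25. Without both wild-type arrays of high 18S signal, Eya1 was 0.071, Eya2 0.17, Hmx3 0.12 and Eya4 -0.00030. That setting leaves wild-type replicate 1 alone, assumed to vary like the mutants, and no sign is read from it. The 18S covariate is partly confounded with genotype, so no sign is read from it either. Nor is one read for Hmx3, which lay below the bacterial level on all arrays. The cause was not tested. Leaving out single arrays gave -0.15 to 0.069 for Eya1, -0.34 to -0.014 for Eya2, -0.18 to 0.31 for Eya4, -0.15 to 0.012 and 0.0024 to 0.76 for the brighter and the dimmer Six4 probe set, -0.30 to -0.059 for Pax8, -0.14 to -0.0035 for Hmx2, -0.50 to -0.10 for Hmx3 and -0.75 to -0.23 for Oc90. The dimmer Six4 probe set was at 0.061 with array weights. In those settings 0 to 1 of the 9 probe sets had an unadjusted p under 0.05, Oc90 without mutant replicate 1. Without the dimmest 33.3% of probe sets, 6 of the 9 were left. The number of the 9 above background on all arrays was 6, against 3 with the highest bacterial value and 2 with the receptor level. Over all probe sets, 0 passed the adjusted threshold, and 3 did with quantile normalization, 4 with centring, 2 without the dimmest 33.3%, 3 with trend and robust settings and 4 with array weights. Hoxb1 passed in 4 of these, at -2.73, -2.78, -2.78 and -2.83 (centring, dim filter, trend, weights). The count at an unadjusted p under 0.05 was 1303, 2093 with array weights, 1059 to 1975 without single arrays (highest without mutant replicate 1), 908 with the 18S covariate and 961 without both arrays of high 18S signal. Replicates of the same number did not deviate together (correlations 0.05, -0.02 and 0.04), and the replicate block gave 0 calls. With 1 array of each group in a block, the -0.51 of Oc90 stays the same by design. Its limma adjusted p there was 0.814. Depth does not apply to arrays. Signal over background limits Hmx3, Eya4 and the dimmer Six4 probe set, which did not exceed the bacterial level on all arrays. Of the others, only Eya1 and the brighter Six4 probe set exceeded the receptor level on all arrays, and Pax8 and Hmx2 did so on 0.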
